A study of Mus musculus with 3 samples.

Results

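The enzymes and transporters of glycolysis and the pentose phosphate pathway were followed through 3 single-cell libraries of mouse bone marrow progenitors, in which 1 library carries the AML1-ETO fusion. The 31 genes were chosen by name, with earlier results of these data known, and all 31 were among the 27998 genes of each deposited matrix. Cells were negative for lineage markers and for the dead-cell dye DAPI and positive for c-kit, and came from 2 mice of the C57BL/6 strain. The mCherry library held the reporter-positive cells of 1 mouse with Mx1-Cre and a heterozygous Runx1-Runx1t1 (AML1-ETO) knock-in, with the reporter mCherry downstream of the fusion, after poly(I:C). The non_mCherry library held the reporter-negative cells of that same mouse, which share its genotype and treatment and, per the labels, do not express the fusion. The control library came from 1 wild-type mouse. Mx1-Cre responds to the interferon that poly(I:C) induces, so interferon exposure comes with the recombination. The labels give no ages, and whether control also had poly(I:C) is not stated. Fusion, treatment and animal therefore cannot be told apart in comparisons with control. Each group was 1 library, so no difference below has a replicate check and none was tested. All intervals are exact at the 95% level and cover counting error only.

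Glycolysis takes up glucose through transporters of the Slc2a family, traps it by phosphorylation at hexokinase, commits it at phosphofructokinase and ends at pyruvate, which lactate dehydrogenase turns to lactate for export through Slc16a transporters. The pentose phosphate pathway branches off after hexokinase, makes NADPH in its oxidative arm and ribose for nucleotides, and returns carbon to glycolysis through transketolase and transaldolase. Blood stem cells are known for reliance on glycolysis with low mitochondrial activity, and dividing progenitors and granulocytes draw on both routes.

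The libraries stood apart before any of these genes was considered. Runx1t1, the part of the fusion that is nearly silent in blood, had 765 unique molecular identifiers (UMIs, 1 per captured transcript) in mCherry, 28 in non_mCherry and 31 in control. Kit, which encodes c-kit, had 269 CPM in mCherry, 56.7 CPM in non_mCherry and 67.0 CPM in control, where CPM is a gene's UMIs scaled to a common library total. After filters, the libraries held 7870 to 10076 cells and 86907912 to 142720749 UMIs, with medians of 8144 UMIs per mCherry cell, 9232 per non_mCherry cell and 15374 per control cell. Malat1, a nuclear RNA, was at 19716 CPM in mCherry, 5315 CPM in non_mCherry and 4824 CPM in control. Of the mCherry cells, 10027 (99.5%) fell in 5 of 22 clusters that held 113 non_mCherry and 5 control cells. Among cells with at least 4000 UMIs, cycling cells were 11.0% of mCherry (10.3 to 11.6), 69.8% of non_mCherry and 76.9% of control cells. Of the kept cells, 37 barcodes were shared between mCherry and control, 20 between mCherry and non_mCherry and 16 between non_mCherry and control.

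The 3 members with the lowest mCherry over control folds, Ldhb, Slc16a1 and Pgam1, are shown by the 250 bases before their start in the RefSeq promoter table (build GRCm38.p6). The windows are chr6:142507958-142508207 on the minus strand for Ldhb, chr3:104638414-104638663 on the plus strand for Slc16a1 and chr19:41911621-41911870 on the plus strand for Pgam1, each written 5′ to 3′ towards the start. Capitals mark ACGTG on either strand, 1 form of the core of the hypoxia response element and also the inner part of CACGTG, the E-box bound by Myc. The other form of that core, GCGTG, occurs in each window shown and was neither marked nor counted.
Ldhb: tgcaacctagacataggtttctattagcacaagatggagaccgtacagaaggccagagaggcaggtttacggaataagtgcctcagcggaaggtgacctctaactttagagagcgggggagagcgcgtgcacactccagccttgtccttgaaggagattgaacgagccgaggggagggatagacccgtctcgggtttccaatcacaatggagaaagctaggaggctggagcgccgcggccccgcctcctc
Slc16a1: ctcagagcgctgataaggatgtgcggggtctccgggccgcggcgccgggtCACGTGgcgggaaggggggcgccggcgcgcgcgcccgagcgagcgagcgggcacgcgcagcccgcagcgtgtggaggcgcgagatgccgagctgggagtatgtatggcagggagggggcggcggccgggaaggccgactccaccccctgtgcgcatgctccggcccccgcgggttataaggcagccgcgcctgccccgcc
Pgam1: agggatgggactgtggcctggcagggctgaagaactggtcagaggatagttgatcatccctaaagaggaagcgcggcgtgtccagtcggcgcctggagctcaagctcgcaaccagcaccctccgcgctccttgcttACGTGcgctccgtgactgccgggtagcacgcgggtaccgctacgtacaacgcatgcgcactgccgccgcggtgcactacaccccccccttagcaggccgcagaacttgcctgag
The Ldhb window held no ACGTG, the Pgam1 window held 1 match, 114 bases before the start, and the Slc16a1 window held 2 overlapping matches that are the strands of 1 CACGTG. Among all promoters of the table, counted over 250 bases before to 50 after the start, ACGTG was in 6447 of 32851 windows (19.6%) and CACGTG in 2349 (7.15%). For 30 of the 31 members with an entry, ACGTG was in 19 of 44 windows (43.2%), belonging to 16 genes, and CACGTG in 4 of 44 (9.09%), belonging to Ldha, Pfkfb3, Pfkm and Slc16a1. Letters in these windows describe the sequence and do not show binding.

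The pathway as a whole took a smaller part of the transcriptome in mCherry cells, while glucose transporters and Hk1 took a larger one. The summed members made up 4533 CPM in mCherry, 6822 CPM in non_mCherry and 7579 CPM in control, which is 0.453%, 0.682% and 0.758% of all UMIs. Per cell, after thinning to 2000 UMIs, the median was 8 member UMIs in mCherry (quartiles 6 to 11), 12 in non_mCherry (9 to 15) and 14 in control (10 to 18), so the middle ranges of mCherry and control cells touched at 10 to 11 UMIs. A gene entered the counts when it reached 20 CPM in 1 library of a pair, and it was called higher or lower when log2((CPM + 5)/(CPM + 5)) passed 1.5-fold. In mCherry over control, 26 members entered, 7 of them through 1 library alone, 2 through mCherry and 5 through control. Of the 26, 2 were higher, against 27.4% of all 6580 genes that entered, and 18 were lower, against 21.9% of all genes. Slc2a3, 1 of the 2 higher, entered through mCherry alone. Hk2, Pfkp, Ldhb, Slc16a1 and G6pdx, among the 18 lower, entered through control alone. Such members could be called only on the side where they entered. The members' median log2 ratio was -0.97, beside 0.08 for all genes. In mCherry over non_mCherry, 24 members entered, with 2 higher (27% of all genes) and 14 lower (20.2% of all genes) and a median of -0.64, beside 0.10 for all genes. Of the 24, 2 entered through mCherry alone, Slc2a3 included. Another 3, Pfkp, Slc16a1 and G6pdx, entered through non_mCherry alone, and all were called lower. In non_mCherry over control, 24 entered, with 0 higher (2.25% of all genes) and 1 lower (0.869% of all genes), and a median of -0.16, beside -0.03. Here 2 members entered through control alone, among them Ldhb, the 1 called lower. The pairs share libraries, so their counts are not separate evidence.

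**Figure D1:**
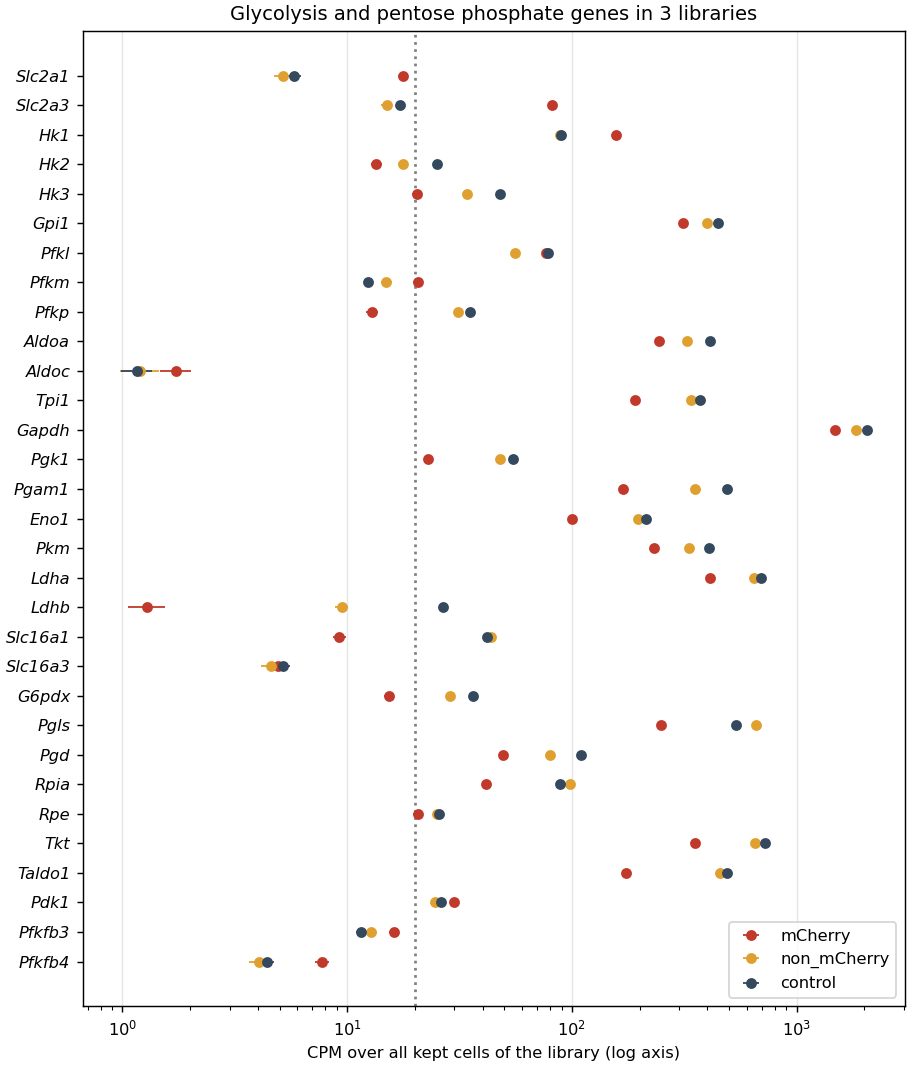
Level of each of the 31 genes over all kept cells of a library, in CPM on a log axis, with exact Poisson intervals. The mCherry points lie left of the other libraries for most enzymes, as for Pgam1 (168, 352 and 492 CPM in mCherry, non_mCherry and control), and right of them for Slc2a1, Slc2a3 and Hk1.

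**Figure D2:**
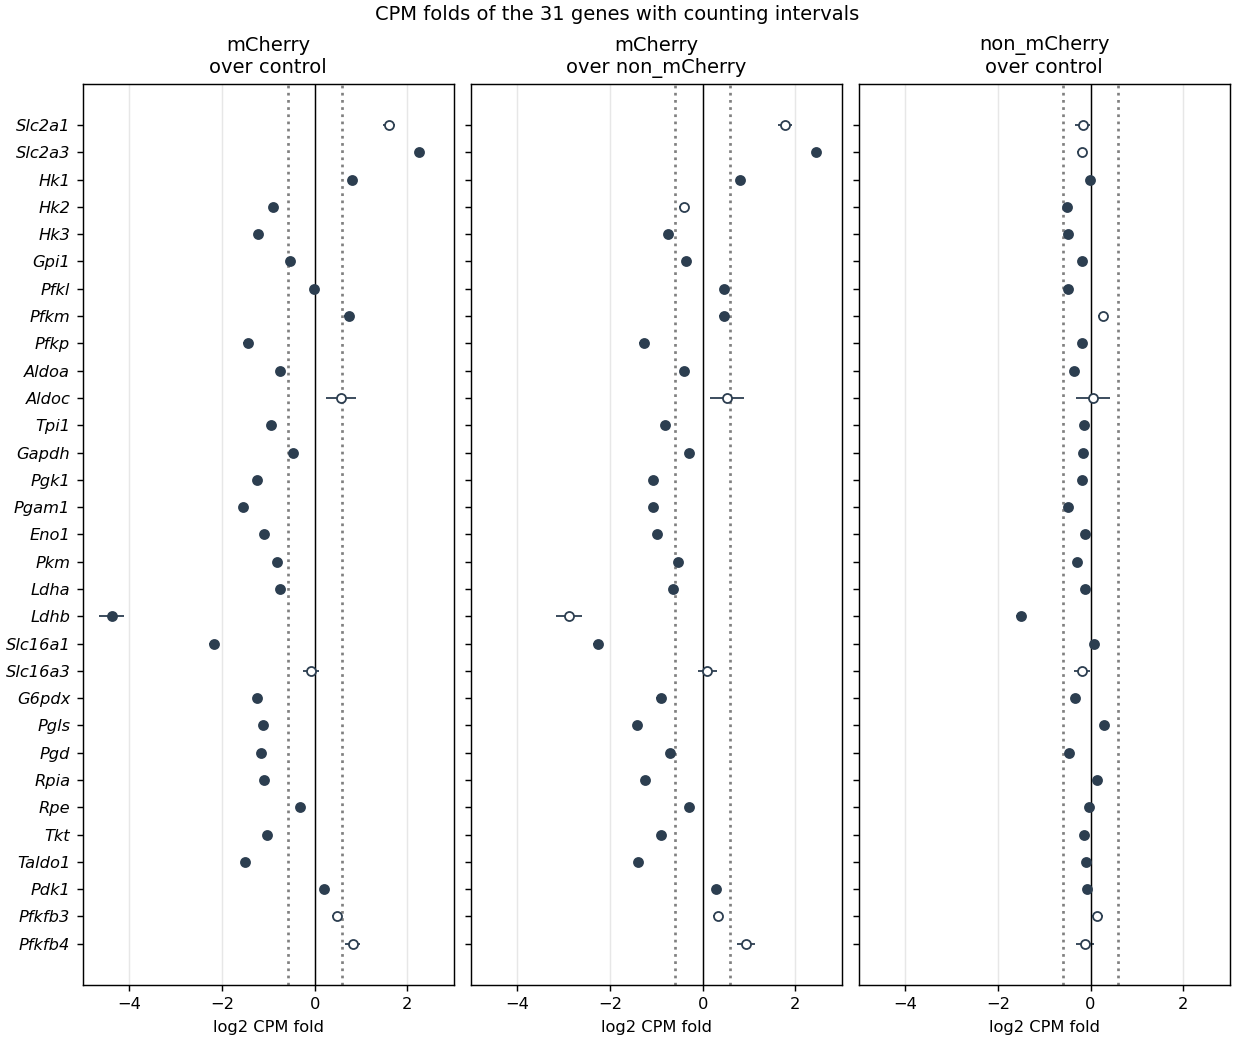
CPM fold of each gene for the 3 pairs of libraries on a log2 axis, with exact counting intervals, dotted lines at 1.5-fold and open points for genes under 20 CPM in both libraries of the pair. In the right panel, non_mCherry over control, Ldhb (0.353-fold) is the only point beyond the lines among genes at 20 CPM or more.

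Cell makeup moved with these totals. The summed level of the 9 granulocyte-monocyte progenitor markers was 2290 CPM in mCherry, 10039 CPM in non_mCherry and 15522 CPM in control, and that of the 11 basophil and mast cell markers was 11329, 794 and 592 CPM, with every marker of both lists detected in each library. Cpa3 alone gave 10491 CPM of the latter sum in mCherry, 183.5 CPM in non_mCherry and 96.0 CPM in control. Cma1 gave 559, 8.34 and 3.23 CPM. The mCherry sum therefore does not describe the other markers of that list. The 10 stem and multipotent progenitor markers summed to 4047 CPM in mCherry, 342 CPM in non_mCherry and 374 CPM in control. Of that sum Hlf gave 293, 10.9 and 23.1 CPM, while Mycn went the other way, at 0.144, 4.10 and 5.83 CPM. That sum therefore does not describe each marker of its list. The 10 B cell progenitor markers summed to 50.5, 1784 and 67.6 CPM. All markers of these 2 lists were detected in each library. The neutrophil elastase gene Elane was at 12.9 CPM in mCherry, 1421 CPM in non_mCherry and 2907 CPM in control. The part of cell makeup, Malat1, depth and cycling in the all-cell totals was not tested, and values within clusters, within cycling states and in marker-led cells follow below. In summed libraries, fewer cells of a type and less RNA per cell cannot be told apart.

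Both glucose transporters were higher in mCherry. Slc2a3, which encodes the high-affinity transporter GLUT3, was at 81.9 CPM in mCherry, 14.99 CPM in non_mCherry and 17.1 CPM in control. It was 4.79-fold higher in mCherry than in control (4.57 to 5.01) and 5.46-fold higher than in non_mCherry (5.15 to 5.80). Slc2a1, which encodes GLUT1, a transporter of many dividing cells, was at 17.7 CPM in mCherry, 5.18 CPM in non_mCherry and 5.82 CPM in control. Only mCherry was high for either gene, and non_mCherry and control differed by 1.14-fold at most. Slc2a1 stayed under 20 CPM and so outside the counts, with plain folds of 3.04 over control (2.80 to 3.31) and 3.42 over non_mCherry. Together the transporters gave 99.6 CPM in mCherry, 20.2 CPM in non_mCherry and 22.9 CPM in control, and Slc2a3 supplied 82.2%, 74.3% and 74.6% of those UMIs. A share of UMIs is a share of captured transcripts, not of protein.

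The hexokinase genes went in opposite directions. Hk1, the mitochondria-bound isoform of most tissues, was at 156 CPM in mCherry, 88.8 CPM in non_mCherry and 89.6 CPM in control, 1.75-fold higher in mCherry than in control. Hk2, the inducible isoform, was at 13.4, 17.8 and 25.1 CPM in mCherry, non_mCherry and control. Hk3, the isoform of myeloid cells, was at 20.4 CPM in mCherry, 34.2 CPM in non_mCherry and 47.8 CPM in control. So mCherry was high for Hk1 and low for Hk2 and Hk3, with folds over control of 0.536 and 0.427, and non_mCherry lay between for Hk2 and Hk3. The hexokinase total was less spread, at 190 CPM in mCherry, 141 CPM in non_mCherry and 162 CPM in control. Hk1 made up 82.2% of hexokinase UMIs in mCherry (81.6 to 82.8), 63.1% in non_mCherry (62.2 to 64.0) and 55.1% in control (54.5 to 55.8).

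Phosphofructokinase, the committed step, also differed by isoform. Pfkl, the liver-type subunit, was at 76.9 CPM in mCherry, 56.0 CPM in non_mCherry and 77.9 CPM in control, so non_mCherry was the low library. Pfkp, the platelet-type subunit, was at 12.9 CPM in mCherry, 30.99 CPM in non_mCherry and 35.0 CPM in control, 2.72-fold lower in mCherry than in control (2.55 to 2.90). Pfkm, the muscle-type subunit, was at 20.6, 14.95 and 12.4 CPM in mCherry, non_mCherry and control. Its plain fold over control was 1.67 (1.56 to 1.78), but it stayed under the call once 5 CPM were added to both libraries. Exons of Pfkm overlap Gm26513 on the same strand, and how shared reads were assigned is not known. Pfkp made up 11.7% of phosphofructokinase UMIs in mCherry, against 30.4% in non_mCherry and 27.9% in control, and Pfkm made up 18.7%, 14.7% and 9.88%.

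**Figure D3:**
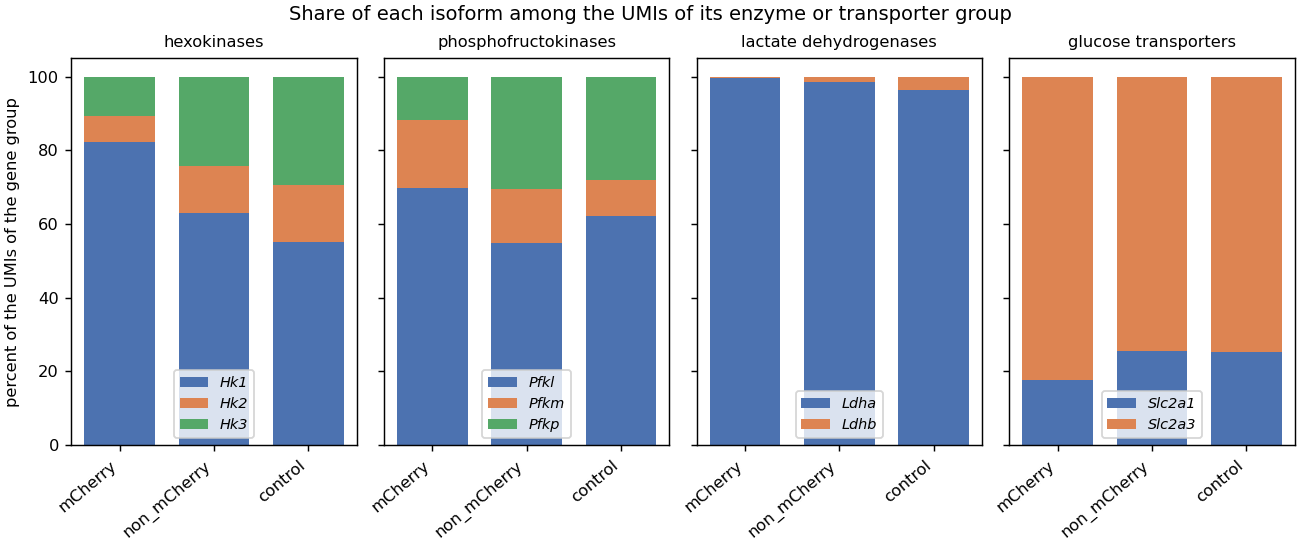
Stacked bars give each gene's percent of the UMIs of its group in mCherry, non_mCherry and control. Hk1 fills 82.2% of the mCherry hexokinase bar against 55.1% of the control bar, and Ldha fills 96.3% or more of each lactate dehydrogenase bar.

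The enzymes between hexokinase and pyruvate were lower in mCherry than in either other library, apart from phosphofructokinase and the scarce Aldoc. The largest differences were in the later steps of the chain. Pgam1, phosphoglycerate mutase, was at 168 CPM in mCherry, 352 CPM in non_mCherry and 492 CPM in control, 0.342-fold over control (0.336 to 0.348), and the 3 libraries were well separated. Pgk1, phosphoglycerate kinase, was at 22.8, 48.1 and 54.4 CPM in mCherry, non_mCherry and control, 2.38-fold lower in mCherry than in control. Eno1, an enolase, was at 100.2 CPM in mCherry, 197 CPM in non_mCherry and 215 CPM in control, 2.14-fold lower in mCherry than in control. For both genes, non_mCherry lay close to control and mCherry stood apart. Near-identical copies took few UMIs (Eno1b 14, 91 and 68, Pgk1-rs7 19, 48 and 37 in mCherry, non_mCherry and control), and how the counting split shared reads is not known. Tpi1, Aldoa and Pkm, which encode triose phosphate isomerase, an aldolase and pyruvate kinase, had folds over control of 0.518, 0.592 and 0.569. Gapdh, the most abundant member, was at 1482 CPM in mCherry, 1829 CPM in non_mCherry and 2053 CPM in control, and with Gpi1, glucose phosphate isomerase (311, 398 and 449 CPM), it was lower in mCherry without reaching 1.5-fold. Aldoc, the brain-type aldolase, was at 1.73 CPM in mCherry, 1.20 CPM in non_mCherry and 1.16 CPM in control.

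Lactate genes held the largest single difference. Ldhb, the subunit that favours the conversion of lactate to pyruvate, had 116 UMIs in mCherry (1.28 CPM), 820 in non_mCherry (9.44 CPM) and 3813 in control (26.7 CPM). It was 20.8-fold lower in mCherry than in control (17.3 to 25.3), 7.35-fold lower than in non_mCherry (6.05 to 9.01) and 2.83-fold lower in non_mCherry than in control (2.63 to 3.06). Each library was thus separated from the next, and Ldhb was the only member called between non_mCherry and control. In both comparisons with control, Ldhb reached 20 CPM in control alone and so could enter on the lower side only. Ldha, the subunit that favours lactate production, was at 411 CPM in mCherry, 643 CPM in non_mCherry and 696 CPM in control, and supplied 99.7%, 98.6% and 96.3% of lactate dehydrogenase UMIs. Slc16a1, which encodes the lactate transporter MCT1, was at 9.23 CPM in mCherry, 43.8 CPM in non_mCherry and 41.8 CPM in control. It was low in mCherry alone, 4.53-fold lower than in control (4.21 to 4.88) and 4.75-fold lower than in non_mCherry. Slc16a3, which encodes the lactate exporter MCT4, was at 4.91, 4.57 and 5.17 CPM in mCherry, non_mCherry and control, too low to enter the counts. Its share of the UMIs of these transporters was 34.7% in mCherry, against 9.44% in non_mCherry and 11.0% in control, at totals of 14.1, 48.4 and 47.0 CPM.

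Pentose phosphate genes were lower in mCherry in both arms. In the oxidative arm, G6pdx, the entry enzyme, was at 15.3 CPM in mCherry, 28.6 CPM in non_mCherry and 36.1 CPM in control. Pgls, the lactonase, was at 248 CPM in mCherry, 657 CPM in non_mCherry and 535 CPM in control. Pgd, the last oxidative enzyme, was at 49.3 CPM in mCherry, 79.8 CPM in non_mCherry and 109.7 CPM in control. All 3 were lowest in mCherry, with folds over control of 0.425, 0.463 and 0.450, and Pgls was highest in non_mCherry. Exons of Pgls overlap Fam129c on the same strand.

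In the other arm, Taldo1, transaldolase, was at 174 CPM in mCherry, 456 CPM in non_mCherry and 491 CPM in control, 2.82-fold lower in mCherry than in control (2.77 to 2.87). Tkt, transketolase, was at 351 CPM in mCherry, 653 CPM in non_mCherry and 719 CPM in control, 2.05-fold lower in mCherry than in control. Rpia, which makes ribose phosphate, was at 41.3, 97.8 and 88.2 CPM in mCherry, non_mCherry and control, 2.13-fold lower in mCherry than in control (2.06 to 2.22). In these genes, non_mCherry and control were within 1.11-fold of each other. Rpe, an epimerase, differed least of this arm, at 20.6 CPM in mCherry, 25.1 CPM in non_mCherry and 25.7 CPM in control.

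The regulatory kinases had low levels and lay on the higher side in mCherry. Pdk1, which holds pyruvate back from the mitochondria, was at 29.95 CPM in mCherry, 24.6 CPM in non_mCherry and 26.0 CPM in control, and was not called. Pfkfb3 and Pfkfb4, which make the allosteric activator of phosphofructokinase, were under 20 CPM, with plain folds over control of 1.40 (1.303 to 1.502) and 1.77 (1.58 to 1.97).

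Among the classes of non_mCherry and control cells, the pathway was highest in myeloid progenitors and lowest in cells of the T, NK and innate lymphoid cell-like class. Clusters were made without the 31 genes and named from marker lists. The summed members were at 9159 CPM in non_mCherry and 9569 CPM in control granulocyte-monocyte progenitor-like cells, and at 3849 and 3974 CPM in non_mCherry and control cells of the T, NK and innate lymphoid cell-like class. Monocyte and macrophage progenitor-like cells were at 8157 CPM in non_mCherry and 8770 CPM in control. Erythroid progenitor-like cells were at 5722 CPM in non_mCherry and 5369 CPM in control, and megakaryocyte-like cells at 5497 and 5764 CPM. The order of these 5 classes was the same in both libraries except that erythroid progenitor-like cells stood above megakaryocyte-like cells in non_mCherry and below them in control. All 5 clusters of mCherry cells lay between 4171 and 5084 CPM, above the lowest of the 11 control classes and under the other 10.

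**Figure D4:**
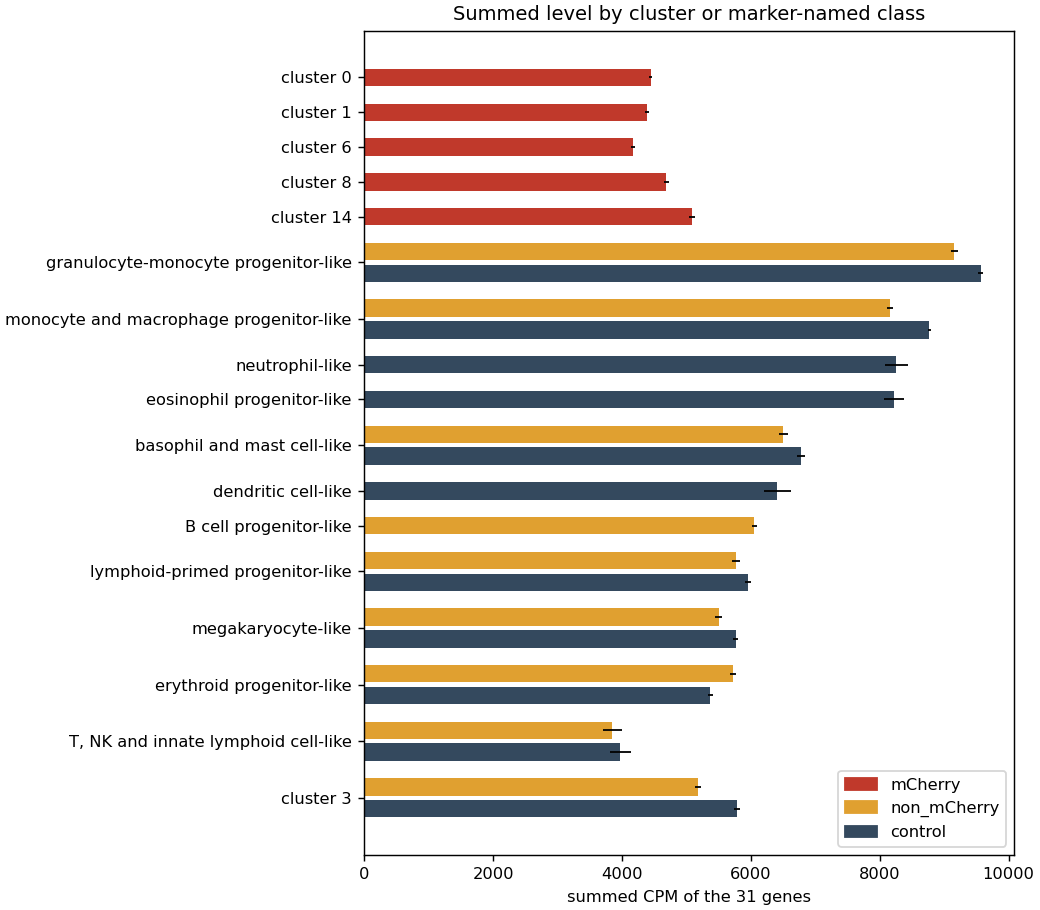
Summed CPM of the 31 genes in the 5 clusters that hold mCherry cells (top) and in marker-named classes and cluster 3 of non_mCherry and control cells, with exact Poisson intervals. The mCherry clusters span 4171 to 5084 CPM, and control classes span 3974 to 9569 CPM.

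Isoform shares differed more between classes than between non_mCherry and control within the myeloid and erythroid classes named here. Hk3 supplied 48.5% of hexokinase UMIs in granulocyte-monocyte progenitor-like cells of both non_mCherry and control, and 0.622% in erythroid progenitor-like cells of both. Hk1 supplied 96.2% in erythroid progenitor-like cells of non_mCherry and 95.5% in those of control, and 92.1% and 87.8% in megakaryocyte-like cells. Pfkm supplied 37.2% of phosphofructokinase UMIs in erythroid progenitor-like cells of non_mCherry and 32.2% in those of control, but 6.09% and 4.58% in granulocyte-monocyte progenitor-like cells. In control dendritic cell-like cells, 76 cells in all, Pfkp supplied 78.8% (68.6 to 86.9). Pkm was at 17.7 CPM in non_mCherry and 14.97 CPM in control erythroid progenitor-like cells, where Pklr, the pyruvate kinase of red cells and liver and no member of the list, was at 41.0 and 49.9 CPM. The 5 mCherry clusters held 76.6% to 94.6% Hk1, and the highest was cluster 6, named basophil and mast cell-like.

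Other members were highest in single classes. In the 136 control neutrophil-like cells, G6pdx was at 119 CPM, Slc16a3 at 45.6 CPM, Pfkfb4 at 31.8 CPM and Slc2a3 at 94.5 CPM, the highest of the 11 control classes for each. Taldo1 was at 1020 CPM in control dendritic cell-like cells and at 775 CPM in non_mCherry and 788 CPM in control basophil and mast cell-like cells. In B cell progenitor-like cells, of which non_mCherry had 2027, Pgls was at 1224 CPM, Rpia at 181 CPM, Aldoa at 88.3 CPM and Hk3 at 0.912 CPM. Control held 22 cells in each of the 2 B cell progenitor-like clusters. Over all cells Pgls and Rpia were higher in non_mCherry than in control, and the part of the B cell progenitor-like cells in that was not tested.

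Eno1, Pgls, Taldo1 and Slc2a1 lay outside the range of control classes in every mCherry cluster. The same was not counted over all genes, so how common such a separation is was not measured. Eno1 spanned 89.8 to 118.5 CPM over the 5 mCherry clusters, against 127 to 296 CPM over the 11 control classes. Pgls spanned 199.6 to 297 CPM against 329 to 607 CPM, and Taldo1 163.8 to 189 CPM against 289 to 1020 CPM. Slc2a1 spanned 16.1 to 23.9 CPM against 0.656 to 9.48 CPM. The other members overlapped, among them Slc2a3, at 45.1 to 100.1 CPM in mCherry clusters against 6.30 to 94.5 CPM. Against the 9 classes of non_mCherry, Eno1, Pgls and Taldo1 again lay below and Slc2a3 lay above, at 45.1 CPM or more against 33.95 CPM or less.

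The class name basophil and mast cell-like was the only one with enough cells in all 3 libraries, though different clusters supplied it: cluster 6 in mCherry, led by Cma1 and Mcpt4, and cluster 10 in the others, led by Prss34 and Gzmb. There the summed members were at 4184 CPM in mCherry, 6500 CPM in non_mCherry and 6779 CPM in control. Of 26 members that entered in mCherry over control, 5 were higher (24.7% of all genes) and 14 lower (15.2% of all genes). Of 25 in mCherry over non_mCherry, 5 were higher (28.2%) and 12 lower (13.3%). Of these, 9 and 8 members reached 20 CPM in 1 library of the pair alone, 3 of them each time in mCherry. The other 6, Hk2, Hk3, Pfkp, Pgk1, Slc16a1 and G6pdx, did so in control alone. The other 5, the same genes without Hk3, did so in non_mCherry alone. Each could enter on the lower side only and was called lower. The higher ones in each pair were Slc2a1, Slc2a3, Hk1, Pfkm and Pdk1, of which Slc2a1, Pfkm and Pdk1 reached 20 CPM in mCherry alone and so could enter on the higher side only. Hk1 was at 219 CPM in mCherry, 106.5 CPM in non_mCherry and 109.1 CPM in control, and Taldo1 at 171, 775 and 788 CPM. Here too Slc2a1 was high in mCherry alone, at 23.9 CPM against 3.79 CPM in non_mCherry and 4.61 CPM in control.

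Cells led by stem cell markers gave smaller differences, and Hk3 was highest rather than lowest in mCherry. No cluster was named stem and multipotent progenitor-like, so cells were taken whose leading marker list, on counts thinned to 2000 UMIs, was that of stem cells, a choice made after the data were seen. These were 1346 mCherry, 215 non_mCherry and 435 control cells, in which the summed members were at 4517, 4875 and 5436 CPM. In mCherry over control, 25 members entered, 2 were higher (18.6% of all genes) and 10 lower (13.6% of all genes), with a median log2 ratio of -0.35. Of the 25, 7 reached 20 CPM in 1 of the pair alone, 3 of them in mCherry, Hk3 included. The other 4, Hk2, Pfkp, Ldhb and Slc16a1, did so in control alone and were all called lower. In mCherry over non_mCherry, 3 were higher (22.2%) and 5 lower (11.3%) of 22, with a median of -0.06. Hk3 and Pdk1, among those 3 higher, reached 20 CPM in mCherry alone and so had entered through the library where they were high. Slc16a1, among the 5 lower, reached it in non_mCherry alone. Slc2a3 was at 89.6 CPM in mCherry, 42.65 CPM in non_mCherry and 53.9 CPM in control, still highest in mCherry. Hk3 was at 22.1 CPM in mCherry (265 UMIs), 3.18 CPM in non_mCherry (5 UMIs) and 5.58 CPM in control (24 UMIs), so mCherry was highest, where over all cells it was lowest. Gapdh was at 1416, 1098 and 1281 CPM and thus also highest in mCherry. Ldhb was at 3.58, 10.8 and 45.3 CPM and Slc16a1 at 8.66, 32.5 and 32.5 CPM in mCherry, non_mCherry and control. Both were again lowest in mCherry, while Hk1, at 149.6, 139 and 122 CPM, no longer reached the call.

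Cycling and non-cycling cells were compared within each library. Cells were thinned to 4000 UMIs, and cells with fewer were left out. Those left out were 339 of 10076 mCherry, 1108 of 7870 non_mCherry and 310 of 8854 control cells. A cell was called cycling at 24 or more UMIs of 93 S, G2 and M phase genes, a limit set after the data were seen. There were 1067 cycling cells in mCherry, 4720 in non_mCherry and 6568 in control. With counts scaled rather than thinned, over all kept cells, cycling cells were 10.4%, 63.6% and 76.3%. Close to the limit, at 20 to 27 such UMIs, lay 3.75% of mCherry, 14.4% of non_mCherry and 15.7% of control cells, so the classes are ranges of a score. The summed members were at 5260 CPM in cycling and 4380 CPM in non-cycling mCherry cells, 7146 and 5975 CPM in non_mCherry cells, and 7758 and 6611 CPM in control cells. Cycling cells were thus 1.20-fold higher in mCherry, 1.20-fold in non_mCherry and 1.17-fold in control. With the limit 1.5 times as high, the folds of non_mCherry and control turned to 0.972 and 0.956.

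Single members differed more than the sum. Slc2a3 was at 46.7 CPM in cycling and 89.8 CPM in non-cycling mCherry cells, at 12.6 and 23.3 CPM in non_mCherry cells, and at 14.9 and 29.5 CPM in control cells, with folds of 0.520 (0.481 to 0.560), 0.539 and 0.505. It was the only member called lower in cycling cells of every library. In non_mCherry and control, however, Slc2a3 reached 20 CPM in non-cycling cells alone and so could enter on the lower side only. The calls were 1 higher and 2 lower of 21 in mCherry (10% and 4.46% of all genes), 3 higher and 1 lower of 24 in non_mCherry (10.4% and 7.74%), and 0 higher and 1 lower of 25 in control (6.22% and 6.28%). Tpi1 was 1.77-fold higher in cycling cells of mCherry, 1.56-fold in non_mCherry and 1.38-fold in control, and Slc16a1 2.23-fold, 2.03-fold and 1.57-fold. Gapdh was 1.33-fold, 1.30-fold and 1.25-fold higher.

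**Figure D5:**
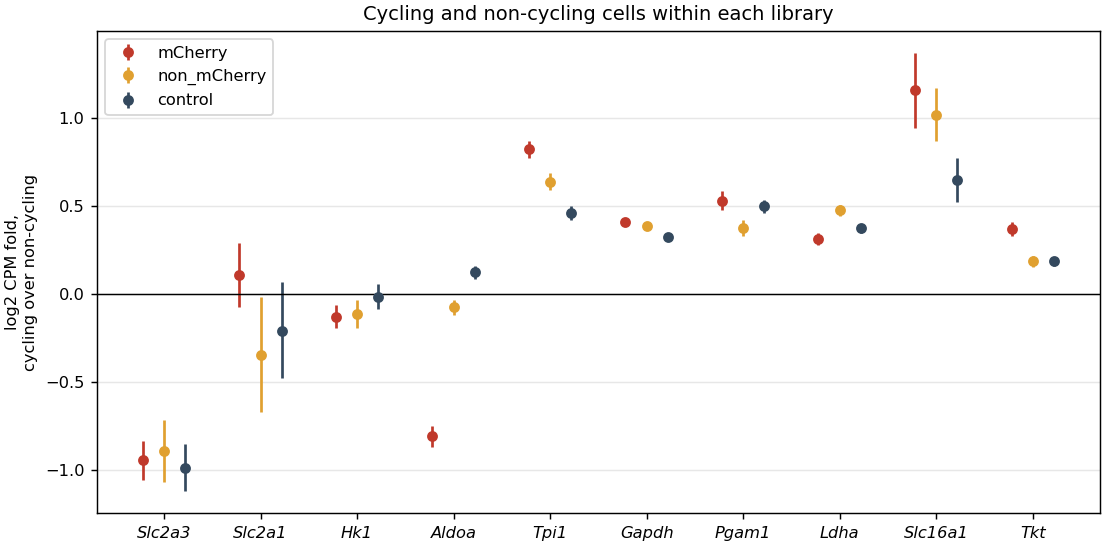
Log2 CPM fold of cycling over non-cycling cells for 10 of the genes in each library, with exact counting intervals. Slc2a3 lies below 0 in all 3 libraries (0.520, 0.539 and 0.505-fold in mCherry, non_mCherry and control), and Aldoa lies below 0 most clearly in mCherry (0.571-fold).

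The differences between libraries were present within both states. In non-cycling cells, mCherry over control had 2 members higher (22.1% of all genes) and 16 lower (15.7%) of 26, and in cycling cells 2 higher (23.5%) and 16 lower (12.3%) of 25. The 2 higher members were Slc2a3 and Hk1 in each. In cycling cells Slc2a3 reached 20 CPM in mCherry alone and so could enter on the higher side only. Of the members that entered, 6 in non-cycling and 7 in cycling cells reached 20 CPM in 1 library alone, 5 and 6 of them in control. In mCherry over non_mCherry, non-cycling cells had 2 higher (22.4%) and 11 lower (12.6%) of 25, and cycling cells 2 higher (24%) and 13 lower (12%) of 23. For this pair, 5 members in each state reached 20 CPM in 1 library alone, 4 of them in non_mCherry. In cycling cells Slc2a3 again did so in mCherry alone. Slc2a3 was 3.05-fold higher in non-cycling mCherry than control cells and 3.13-fold higher in cycling ones, both less than the 4.79-fold over all cells. Hk1 was 1.76-fold and 1.63-fold higher in non-cycling and cycling cells. Of the members called lower than control over all cells, Aldoa was called in cycling cells alone, Tpi1 in non-cycling cells alone and Ldha in neither state.

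Between non_mCherry and control, class by class, the summed pathway differed little and Ldhb and Pfkl were lower in non_mCherry. The summed members had folds of 0.930 to 1.07 over the 7 named classes with at least 100 cells in both libraries, and 0.895 (0.884 to 0.905) in the unnamed cluster 3. Ldhb was lower in non_mCherry in 7 of 7 named classes, with folds of 0.295 to 0.830 and intervals below 1 in 4, those of granulocyte-monocyte, lymphoid-primed and monocyte and macrophage progenitor-like cells and megakaryocyte-like cells. In cluster 3 its fold was 0.196 (0.0852 to 0.398), lower than in any of the 7. In lymphoid-primed progenitor-like cells Ldhb was at 15.1 CPM in non_mCherry and 51.0 CPM in control. Pfkl was lower in 7 of 7 named classes, with folds of 0.624 to 0.919 and 6 intervals below 1, and in cluster 3 at 0.686. Pgls, 1.23-fold higher in non_mCherry over all cells, had folds of 0.995 to 1.19 in the 7 named classes and an interval of 0.966 to 1.04 in cluster 3.

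Of 101 further genes of glucose metabolism and its control, 44 entered in mCherry over control, with 13 higher (27.4% of all genes), 7 lower (21.9% of all genes) and a median log2 ratio of -0.02, against 0.08 over all genes. The highest were Slc16a11, a monocarboxylate transporter family member (235 CPM in mCherry, 3.19 CPM in non_mCherry and 2.00 CPM in control), Txnip, which restrains glucose uptake (278, 76.2 and 49.6 CPM), Bhlhe40, a repressor induced by hypoxia (35.3, 7.36 and 5.70 CPM), and Ddit4, an inhibitor of mTORC1 signalling (30.8, 12.3 and 9.47 CPM). The lowest were Emb, which encodes embigin, a partner protein of monocarboxylate transporters (51.9, 188 and 274 CPM in mCherry, non_mCherry and control), Prps1, which turns ribose phosphate to the nucleotide precursor (23.1, 59.3 and 58.4 CPM), Mpc1, a subunit of the mitochondrial pyruvate carrier (84.1, 147 and 177 CPM), and Minpp1, an inositol polyphosphate phosphatase (34.7, 67.8 and 76.2 CPM). Each stood on 1 side in mCherry, with non_mCherry nearer to control. Regulators were 10 higher and 0 lower of 20, against those same shares of all genes. Among the 10 was Hif1a, the hypoxia factor, at 60.0 CPM in mCherry, 30.8 CPM in non_mCherry and 31.2 CPM in control. Also among them, Arnt, Mlxip, Bhlhe40, Ddit4, Rptor, Rictor and Tsc1 reached 20 CPM in mCherry alone. These could enter on the higher side only, as could Slc16a11, Pgm2l1 and Bpgm among the 13 higher. The 7 lower reached 20 CPM in both libraries. Regulators under 20 CPM in both mCherry and control stayed outside these counts and went both ways. In mCherry, non_mCherry and control, Egln3 was at 0.963, 14.0 and 15.6 CPM, Mycn at 0.144, 4.10 and 5.83 CPM and Vegfa at 7.50, 14.2 and 19.4 CPM. Epas1 was at 3.01, 0.0921 and 0.0841 CPM, and Bnip3 at 15.1, 9.8 and 8.74 CPM. Genes of pyruvate entry were 0 higher and 2 lower of 7, beside the same 27.4% and 21.9%. In mCherry over non_mCherry, 13 were higher (27% of all genes) and 8 lower (20.2%) of 47, shares near those of all genes. Of those 13, Slc16a11, Pgm2l1, Bpgm, Arnt, Mlxip, Bhlhe40, Ddit4, Rptor and Tsc1 reached 20 CPM in mCherry alone. Of the 8, Gpd1l and Prkab1 did so in non_mCherry alone. In non_mCherry over control 0 were higher (2.25%) and 1 lower (0.869%) of 36.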

How the data were processed

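The authors deposited UMI counts per gene and cell barcode for each of the 3 libraries. Per the submitters' processing notes they used Cell Ranger 6.1.2 and mm10. The software version given per the file headers is 3.1.0. Samples were grouped by their group label. Members and lists were chosen with earlier results of these data known. Barcodes under 1000 genes or 2000 UMIs or over 10% mitochondrial UMIs were dropped. Simulated-doublet scores above 0.35, a limit set after the data were seen, removed 343 mCherry, 186 non_mCherry and 212 control cells. Clusters (leidenalg 0.10.2, resolution 1, 30 components of 2000 variable genes without the members, 15 neighbours) were named from marker lists by a score of at least 1 and at least 3 markers, a rule set after the data were seen. Counts were summed per library or cell set and divided by all UMIs to CPM. Sums carry exact Poisson intervals, folds exact intervals of the 2 counts, and shares Clopper-Pearson intervals (scipy 1.17.1). The interval code was tested on simulated data. With 1 library per group no p-value was computed. Gene overlaps came from GENCODE M21 on mm10. Named further genes were the 4 highest and 4 lowest by log2 ratio in mCherry over control. Alternatives covered scaling, filters, doublets, thinning, pseudocount, cycling state and cell classes. Over a whole library a gene at 20 CPM has over 1000 UMIs, but in small cell sets far fewer, such as 35 for Pfkm in non_mCherry cells led by stem markers.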

Additional observations from a re-analysis of the deposited data

Results flagged for a closer look

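Aldoa went apart between cycling and non-cycling cells of the libraries. Its cycling over non-cycling fold was 0.571 in mCherry (0.547 to 0.596), 0.949 in non_mCherry (0.922 to 0.977) and 1.09 in control (1.06 to 1.11), with 151 CPM in cycling and 265 CPM in non-cycling mCherry cells, against 418 and 384 CPM in control cells. The difference between the libraries was not tested.

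Slc2a3 went apart between cell classes in non_mCherry over control. Its fold was 3.90 in the T, NK and innate lymphoid cell-like class (1.46 to 13.1), from 24 UMIs in 191 non_mCherry cells and 5 UMIs in 128 control cells, against 0.781 in basophil and mast cell-like, 0.692 in lymphoid-primed progenitor-like and 0.832 in megakaryocyte-like cells. These differences between classes were not tested.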

How the results depend on the processing

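No paired analysis was possible because each group was 1 library. Counts of members called and their medians were recomputed under the alternatives. Of 111 values, 93 stayed within 1.5 times the count or 0.1 on the log2 scale, 16 moved further and 2 reversed. With cells thinned to 2000 UMIs, members higher in mCherry over non_mCherry came to 4 and their median to -0.43, and members lower in non_mCherry over control to 3 with a median of -0.27. Without a filter on low values the medians were -0.75 for mCherry over control and -0.52 for mCherry over non_mCherry, in non-cycling cells -0.74 and -0.51, and in cycling cells -0.78 for mCherry over control. In cells led by stem markers, an alternative added after the data were seen, 10 members were lower over control (median -0.35) and 5 over non_mCherry (median -0.064). The cycling over non-cycling fold of the summed members turned to 0.972 in non_mCherry and 0.956 in control with the limit 1.5 times as high, was 1.33 and 1.36 with the limit 1.5 times as low, and 1.26 in control without thinning. The cause was not tested. Of 444 member folds under 6 settings, 348 stayed in their interval and 0 reversed. The planned stem-like cluster could not be used, and the mean over classes was possible for non_mCherry over control alone. Each comparison has 1 library a side, and counting intervals do not cover the spread between mice or libraries.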
